A study of Mus with 9 samples.

Results

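The genes described here carry glucose from the blood into the cell, break it down to pyruvate and decide whether pyruvate becomes lactate or enters the mitochondrion. They are 37 named genes, which occupy 38 of the 55421 rows of the count table because Aldoa has 2 rows. Rows were taken by gene symbol, without a cut on measured values, but the list was chosen with earlier results of these data known. All 38 rows passed the filter on low counts that left 19326 genes for testing. Messenger RNA was counted in mouse left atrium, as the labels describe the tissue, in 3 groups of 3 libraries. MI_ART is myocardial infarction with artesunate, an antimalarial drug of the artemisinin class. MI is myocardial infarction with vehicle, and Sham is sham surgery with vehicle. All animals were male wild-type C57BL/6J mice aged 8 to 10 weeks at the outset, and the infarct was made by tying off for good the left anterior descending coronary artery, which supplies the left ventricle. The labels disagree on the drug: one passage gives 25 mg/kg daily for 7 days from surgery, another 10 mg/kg every other day from 2 days before surgery to day 7. The day of tissue collection is not stated in the sources used here, and the vehicle libraries after infarction are numbered MI 2, MI 3 and MI 4 by their titles. Values for 3 libraries are always listed in the order of those numbers.

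Glucose enters heart muscle mainly through GLUT4, the insulin-responsive transporter encoded by Slc2a4, while GLUT1 (Slc2a1) and GLUT3 (Slc2a3) are transporters common in proliferating, inflammatory and many other cells. Hexokinases trap it as glucose 6-phosphate, phosphofructokinase sets the pace of its breakdown, and the lower enzymes of glycolysis yield pyruvate. Lactate dehydrogenase interconverts pyruvate and lactate, and the pyruvate dehydrogenase complex commits pyruvate to oxidation unless one of its kinases, Pdk1 to Pdk4, has phosphorylated it. Most of these steps are served by several genes, one of them typical of striated muscle. The adult heart takes most of its energy from fatty acids and uses glucose and lactate as secondary fuels.

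Total counts were 68046341 to 83685313 reads per library, and levels are given in CPM, the usual depth-corrected read count, computed here on library sizes adjusted by edgeR's TMM factors. Mitochondrially encoded transcripts took 23.0 to 25.5% of the reads in MI_ART, 12.6 to 20.6% in MI and 37.7 to 43.1% in Sham. The labelled tissue was only partly borne out by its markers: the 7 ventricular muscle markers were detected in every library and summed to 3303 to 4915 CPM in MI_ART, 1885 to 3421 CPM in MI and 8179 to 8960.0 CPM in Sham. The 8 atrial markers summed to 1338 to 12641 CPM in MI_ART, 13556 to 25362 CPM in MI and 1877 to 7612 CPM in Sham, with no overlap between MI_ART and MI. Not every atrial gene followed its sum: in MI against Sham 5 were positive, 3 negative and 0 called, with a median log2 fold change of 0.20. In MI_ART 3 the atrial light chain Myl7 was at 1.96 CPM, against 168 to 989 CPM in the other libraries. MI 4 stood apart from the rest of its group, with a chi-square per gene of 356 to 448 against the other MI libraries, where other pairs within a group gave 52.2 to 99.5. The 8 general heart muscle markers summed to 24731 to 33674 CPM in MI_ART, 21617 to 30706 CPM in MI and 50991 to 57221 CPM in Sham, and 4 of 8 passed the test as lower in MI. The 10 macrophage and monocyte markers summed to 1733 to 3348 CPM in MI_ART, 2559 to 2810.4 CPM in MI and 314 to 489 CPM in Sham, and 10 of 10 were called higher than Sham in both infarcted groups. The 8 fibroblast markers summed to 6849 to 8098 CPM in MI_ART, 7752 to 9154 CPM in MI and 1645 to 1843 CPM in Sham, the 7 neutrophil markers to 17.7 to 86.5 CPM in MI_ART, 47.1 to 112 CPM in MI and 1.32 to 1.55 CPM in Sham and the 5 markers of dividing cells to 117 to 190.4 CPM in MI_ART, 168 to 272 CPM in MI and 2.33 to 7.43 CPM in Sham. Of the fibroblast markers, 5 were called higher and 0 lower than Sham in MI_ART, and 6 higher and 1 lower in MI. The 8 skeletal muscle markers summed to 872 to 1311 CPM in MI_ART, 675 to 965 CPM in MI and 2428 to 2646 CPM in Sham, most of it Ckm, the muscle creatine kinase that the heart expresses too, while the skeletal myosins Myh1, Myh2 and Myh4 lay between 0 and 0.194 CPM. The 6 brown adipocyte markers summed to 64.1 to 115 CPM in MI_ART, 65.1 to 109 CPM in MI and 190.5 to 217 CPM in Sham. The 5 white adipocyte markers summed to 442 to 579.8 CPM in MI_ART, 354 to 578 CPM in MI and 743 to 917 CPM in Sham. These 3 sums were below Sham without overlap, but not every gene followed its sum. In MI, 3 of 5 white adipocyte markers had a positive log2 fold change (median 0.18, 1 called lower), and in MI_ART 0 of 5. For skeletal muscle, 4 of 5 tested markers were positive in MI, with 2 called higher and 1 lower. For brown adipocytes, 4 of 5 tested markers were negative in MI, with 1 called higher and 2 lower. The 6 endothelial markers, at 602 to 636 CPM in MI_ART, 591 to 849 CPM in MI and 671 to 714 CPM in Sham, and the 6 erythroid markers, at 96.7 to 1281 CPM in MI_ART, 288 to 1409 CPM in MI and 395 to 636 CPM in Sham, overlapped between MI and Sham. No marker gene was at 0 in all 9 libraries. In bulk tissue, fewer cells of a type and less RNA per cell cannot be told apart, and the part of these cell types in the results below was not tested.

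In MI against Sham, 10 of the 38 rows were called higher and 15 lower at an edgeR adjusted p under 0.05, which is 26.3% and 39.5% of the rows. Among all 19326 tested genes 18.8% were called higher and 14.3% lower, 33.1% in all. The genes that rose were Slc2a1, Slc2a3, Hk3, Pfkp, Pfkfb4, Pgam1, Eno1, Slc16a3, Pdk3 and Pygl. Those that fell were Slc2a4, Hk2, Pfkm, Pfkfb1, Pfkfb2, Eno3, Ldhb, Slc16a1, Pdk1, Pdk2, Pdk4, Pdha1, Pdp1, Pygm and, with a change of sign under total counts, Pgam2. The median log2 fold change was 0.05 over the 38 rows and 0.04 over all tested genes. The libraries of MI and Sham did not overlap for 29 of 38 rows (76.3%), against 48.9% of all tested genes. Of these rows 13 were higher and 16 lower, against 25.7% and 23.2% of all tested genes, and 26 rows had an unadjusted p under 0.05, against 43.9% of all tested genes. Summed over the members, the level was 9372 to 10035 CPM in MI_ART, 8160 to 9786 CPM in MI and 14401 to 15268 CPM in Sham, so under TMM both infarcted groups lay below every Sham library. As a share of all reads, mitochondrially encoded ones included, the members took 1.09 to 1.17% in MI_ART, 1.03 to 1.22% in MI and 0.899 to 1.14% in Sham, and the groups overlapped.

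The split between higher and lower calls depended on the scaling. Scaled by total counts, which include the mitochondrially encoded reads, 17 rows were called higher and 1 lower in MI_ART (44.7% and 2.63%), against 41.6% and 0.642% of all tested genes. In MI, 20 rows were called higher and 7 lower (52.6% and 18.4%), against 49.3% and 3.33% of all tested genes, so in both groups the share called higher was near that of all genes. The median log2 difference from Sham over all tested genes was then 0.75 in MI_ART and 0.88 in MI, and that over the members 0.64 in MI_ART and 0.90 in MI, while between MI_ART and MI the median of all genes was -0.11. Changes below are relative to the median gene under TMM. With total counts, 7 of the 8 lower calls in MI_ART were lost, those of Slc2a4, Pfkm, Eno3, Ldhb, Pdk2, Pdha1 and Pygm (edgeR adjusted p 0.103 to 0.503). In MI, 8 of the 15 lower calls were lost, those of Hk2, Pfkfb2, Pgam2, Eno3, Slc16a1, Pdk1, Pdha1 and Pdp1 (edgeR adjusted p 0.0630 to 0.926). Each of these genes except Pgam2 kept its sign in the comparison in which it had been called. Hk1, Gpi1, Pfkl, Pfkfb3, Aldoc, Pgk1 and Ldha were called higher with total counts in both infarcted groups, as were Pygl in MI_ART and Tpi1, Pkm and the minor Aldoa row in MI. Without MI 4 and MI_ART 3 together, 10 rows were called higher and 16 lower in MI against Sham. The shares of all tested genes were then 17.1% and 14.4%.

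In MI_ART against Sham, 9 of 38 rows were called higher and 8 lower (23.7% and 21.1%), against 12.9% and 7.41% of all tested genes and 20.3% in either direction. The libraries did not overlap for 28 of 38 rows (73.7%), against 48.2% of all tested genes. Of these rows 13 were higher and 15 lower, against 25.4% and 22.8% of all tested genes, and 25 rows had an unadjusted p under 0.05, against 33.3%. The median log2 fold change was -0.09 over the rows and 0.01 over all genes. This comparison shares the Sham libraries with MI against Sham. Its counts moved when single libraries were left out, and so did the shares of all tested genes. The higher calls numbered 4 without MI_ART 3 (8.94% of all tested genes), 5 without MI_ART 1 (7.97%) and 5 without Sham 3 (8.81%). They numbered 6 without Sham 2 (9.1%) and 10 without MI 4 (17.3%). The lower calls numbered 4 without MI_ART 1 (2.27%), 5 without MI_ART 2 (3.87%) and 5 without Sham 2 (3.96%). They numbered 14 without MI 4 (14.6%), which enters this comparison through the common estimate of spread. Fitted on MI_ART and Sham alone, the lower calls also numbered 14 (13.9%).

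In MI_ART against MI no row was called in either direction, where 0.0103% of all tested genes (2 genes, both lower) were called. At an unadjusted p under 0.05 stood 9 of 38 rows, against 6.96% of all tested genes. That count was 3 without MI_ART 2 (5% of all tested genes), 4 without MI_ART 3 (4.44%) and 6 without MI 3 (7.86%). DESeq2 also called no row in this comparison, with 10 rows at an unadjusted p under 0.05, against 9.33% of all genes it tested. The libraries of both groups did not overlap for 12 rows (31.6%), against 13.9% of all tested genes. Of these, 8 were higher and 4 lower in MI_ART, against 7.38% and 6.52% of all tested genes.

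**Figure D1:**
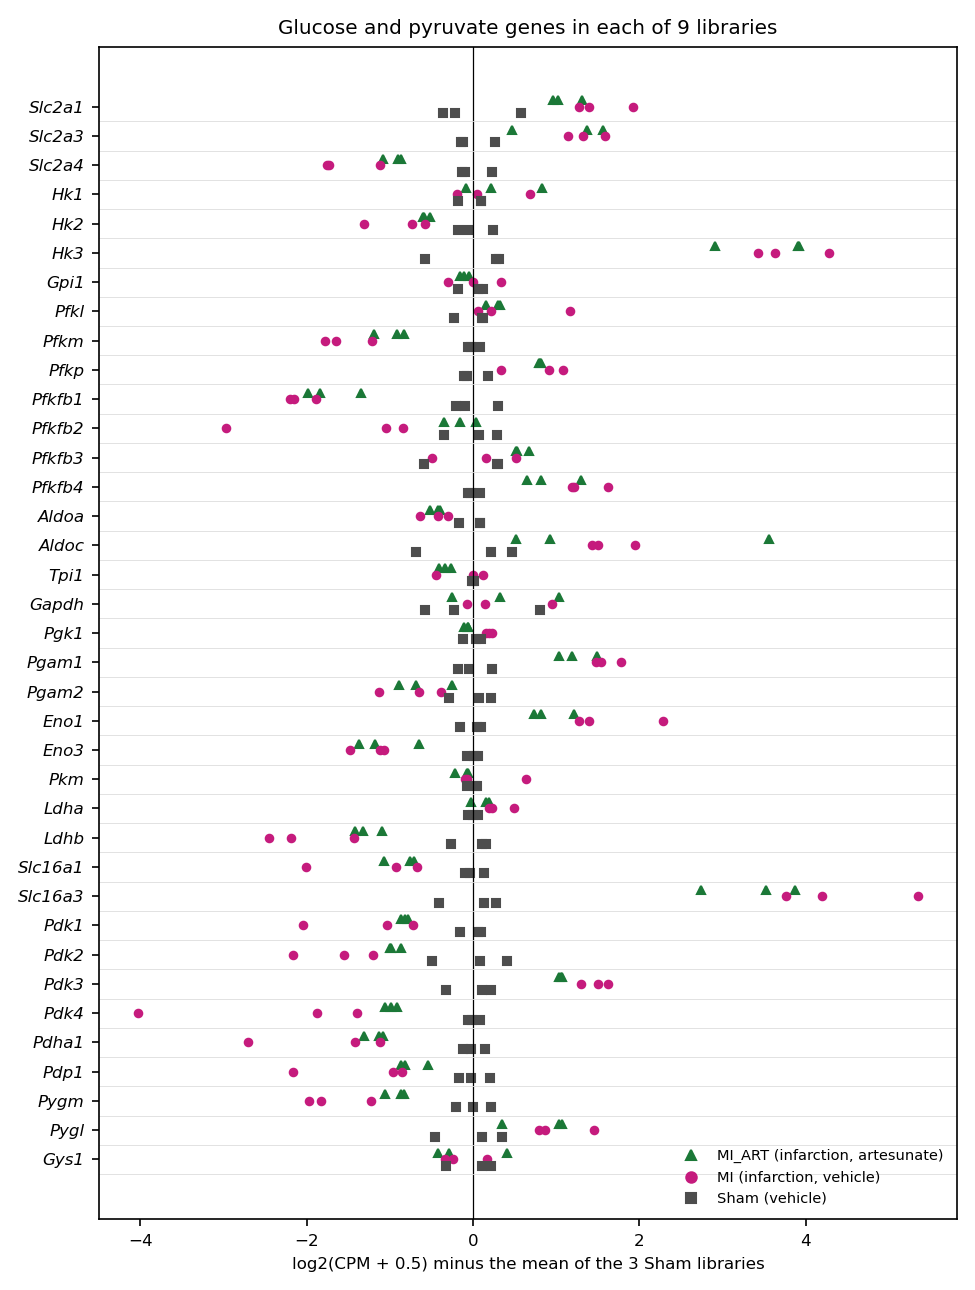
Level of each gene in each of the 9 libraries, as log2(CPM + 0.5) minus the mean of the 3 Sham libraries on the horizontal axis; triangles are MI_ART, circles MI and squares Sham, and each row of points is 1 gene (the minor Aldoa row is left out). Hk3 and Slc16a3 lie far to the right of Sham in all 6 infarcted libraries, Pfkm, Pfkfb1, Ldhb and Pdk2 lie to its left, and the single MI circle far to the left for Pdk4 and Pfkfb2 is MI 4. The Pgam2 circles of MI lie left of Sham here, while its MI_ART triangles overlap Sham. Under scaling by total counts its log2 fold change against Sham was 0.13 in both groups, not called.

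Among the glucose transporters, the muscle form fell and the 2 others rose in both infarcted groups. Slc2a4 (GLUT4; chr11:69942286-69948216, GRCm38) had 169, 197 and 191 CPM in MI_ART, 164, 105 and 107 CPM in MI and 336, 418 and 326 CPM in Sham. All 6 infarcted libraries lay below all Sham libraries, and the 3 MI_ART libraries lay above the 3 MI libraries. Slc2a4 fell to 0.515 times its Sham level in MI_ART (log2 fold change -0.96, SE 0.21, edgeR adjusted p = 0.0109) and to 0.349 times in MI (log2 fold change -1.52, SE 0.21, edgeR adjusted p = 0.000622), and the MI_ART call was lost without MI_ART 1 (edgeR adjusted p 0.0578). Slc2a1 (GLUT1; chr4:119108745-119137330), a transporter of endothelium and growing cells, had 26.7, 20.9 and 21.9 CPM in MI_ART, 28.4, 26.0 and 41.1 CPM in MI and 9.00, 15.9 and 8.04 CPM in Sham. No infarcted library overlapped Sham, while MI_ART and MI overlapped each other. Its level was 2.11-fold higher in MI_ART (log2 fold change 1.08, SE 0.28, edgeR adjusted p = 0.0248) and 2.90-fold higher in MI (log2 fold change 1.54, SE 0.29, edgeR adjusted p = 0.00294). Slc2a3 (GLUT3), best known from neurons and white blood cells, had 6.45, 2.76 and 5.56 CPM in MI_ART, 4.67, 5.35 and 6.58 CPM in MI and 2.32, 1.62 and 1.67 CPM in Sham. It was higher in both infarcted groups without overlap, at low levels throughout, by 1.40 ± 0.34 (log2 ± SE) in MI_ART and 1.56 ± 0.34 in MI (edgeR adjusted p = 0.0171 in MI_ART and 0.00613 in MI). In MI_ART, Slc2a1 lost its call without Sham 1, Sham 3, MI_ART 1 or MI_ART 3 and Slc2a3 without Sham 2, Sham 3, MI_ART 1 or MI_ART 3, with edgeR adjusted p of 0.00796 to 0.0962 and 0.00422 to 0.0764 when each of the 9 libraries was dropped singly.

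Hexokinases, which phosphorylate glucose on entry, split by type. Hk3 (chr13:55005985-55021475), a hexokinase of myeloid blood cells, had 21.6, 10.4 and 21.4 CPM in MI_ART, 15.2, 17.6 and 27.8 CPM in MI and 1.31, 0.474 and 1.26 CPM in Sham. Its lowest infarcted library, MI_ART 2, was far above the highest Sham library. The gene was 17.5-fold higher in MI_ART (log2 fold change 4.13, SE 0.46, edgeR adjusted p = 0.000369) and 19.9-fold higher in MI (log2 fold change 4.31, SE 0.47, edgeR adjusted p = 0.000186), beside the macrophage marker sums given above. Hk2 (chr6:82725025-82774454), the insulin-regulated hexokinase of muscle, had 132, 139 and 132 CPM in MI_ART, 133, 119.9 and 80.0 CPM in MI and 192, 235 and 176 CPM in Sham. In MI_ART its libraries were all below Sham without passing the test (edgeR adjusted p = 0.0758), and with total counts its log2 fold change was 0.15. In MI it fell (log2 fold change -0.86, SE 0.21, edgeR adjusted p = 0.0109), a call lost with total counts (log2 fold change -0.03). Hk1, the general housekeeping hexokinase, overlapped between all groups, at 96.4 ± 32.4 CPM in MI_ART, 87.3 ± 29.2 CPM in MI and 74.6 ± 8.04 CPM in Sham (SD, n = 3 each), with an edgeR adjusted p of 0.580 for MI against Sham. Gpi1, which turns glucose 6-phosphate into fructose 6-phosphate, overlapped as well, at 485 ± 19.9 CPM in MI_ART, 535 ± 119 CPM in MI and 523 ± 55.4 CPM in Sham.

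Phosphofructokinase 1 is built from muscle, liver and platelet subunits. The muscle subunit Pfkm (chr15:98092589-98132447) had 403, 488 and 517 CPM in MI_ART, 395, 292 and 267 CPM in MI and 906, 972 and 884 CPM in Sham. The 3 groups were fully separated, with MI lowest, MI_ART between and Sham highest. Pfkm fell to 0.510 times Sham in MI_ART (log2 fold change -0.97, SE 0.19, edgeR adjusted p = 0.00624) and to 0.346 times Sham in MI (log2 fold change -1.53, SE 0.19, edgeR adjusted p = 0.000368). The platelet subunit Pfkp (chr13:6579874-6649060) had 108, 109.6 and 109 CPM in MI_ART, 118, 132 and 78.3 CPM in MI and 70.4, 57.5 and 59.2 CPM in Sham. It rose by 0.81 in MI_ART and 0.81 in MI on the log2 scale (edgeR adjusted p = 0.0196 in MI_ART and 0.0122 in MI), and MI_ART and MI overlapped. The MI_ART call was lost without Sham 2, Sham 3, MI_ART 1 or MI_ART 3 (edgeR adjusted p 0.000966 to 0.0769 over the 9 libraries left out), and the MI call without Sham 2 (edgeR adjusted p 0.0517). The liver subunit Pfkl, at 107 ± 6.52 CPM in MI_ART, 133 ± 59.2 CPM in MI and 89.9 ± 11.8 CPM in Sham, was not called in either comparison with Sham, and in MI its mean was raised by MI 4 (201 CPM, against 104 and 93.4 CPM in MI 2 and MI 3).

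The bifunctional enzymes Pfkfb1 to Pfkfb4 make and remove fructose 2,6-bisphosphate, the strongest activator of phosphofructokinase 1. Pfkfb1, the liver and muscle form, had 3.89, 4.38 and 6.34 CPM in MI_ART, 3.28, 3.40 and 4.19 CPM in MI and 14.6, 20.9 and 15.8 CPM in Sham. All 6 infarcted libraries lay below Sham, with a fall to 0.285 times Sham in MI_ART (log2 fold change -1.81, SE 0.25, edgeR adjusted p = 0.00103) and to 0.212 times Sham in MI (log2 fold change -2.24, SE 0.25, edgeR adjusted p = 0.000221). Pfkfb2 (chr1:130689043-130729253), the form characteristic of the heart and a target of insulin signalling, had 34.2, 39.0 and 29.8 CPM in MI_ART, 21.0, 18.2 and 4.41 CPM in MI and 46.5, 39.9 and 29.8 CPM in Sham. MI_ART overlapped Sham, and MI lay below both, with MI 4 by far the lowest. In MI_ART against Sham the log2 fold change was -0.18 (edgeR adjusted p = 0.833), and 0.55 with total counts. The fall in MI (log2 fold change -1.42, SE 0.46, edgeR adjusted p = 0.0394) lost its call without any one of Sham 1, Sham 2, Sham 3, MI 3, MI_ART 1, MI_ART 2 and MI_ART 3 (edgeR adjusted p 0.00662 to 0.111 over the 9 libraries left out). Pfkfb4, an inducible form, had 9.64, 10.9 and 15.4 CPM in MI_ART, 14.4, 14.2 and 19.4 CPM in MI and 6.34, 5.87 and 5.67 CPM in Sham. It was higher than Sham in all 6 infarcted libraries, by 1.01 ± 0.22 in MI_ART and 1.43 ± 0.23 in MI (log2 ± SE; edgeR adjusted p = 0.0121 in MI_ART and 0.00124 in MI), the MI_ART call being lost without MI_ART 3 (edgeR adjusted p 0.0526). Pfkfb3, the form induced by hypoxia and growth signals, was at 21.1 ± 1.31 CPM in MI_ART, 15.1 ± 5.19 CPM in MI and 14.5 ± 4.70 CPM in Sham and was not called (edgeR adjusted p = 0.253 in MI_ART and 0.896 in MI). Its lowest MI_ART library (20.23 CPM) lay above the highest Sham library (17.3 CPM) and just above the highest MI library (20.12 CPM).

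In the middle of the pathway, from aldolase to phosphoglycerate kinase, no gene passed the test under TMM. Aldoa, the muscle aldolase that splits fructose 1,6-bisphosphate, had 1336, 1363 and 1249 CPM in MI_ART, 1344, 1156 and 1451 CPM in MI and 1908, 1899 and 1594 CPM in Sham in its main row (ENSMUSG00000030695). Both infarcted groups lay below Sham without overlap under TMM, with log2 fold changes that turned to 0.28 in MI_ART and 0.39 in MI with total counts, and neither passed (edgeR adjusted p = 0.0733 for MI_ART and 0.0527 for MI). The other row of that symbol (ENSMUSG00000114515) held 0 to 55 reads per library. Aldoc, the aldolase of brain, had 729, 82 and 53 reads in MI_ART, 157, 155 and 242 reads in MI and 0, 22 and 32 reads in Sham, so MI_ART 1 held most of the MI_ART reads and no call was made (edgeR adjusted p = 0.0805 in MI_ART and 0.127 in MI). Tpi1, triose phosphate isomerase, was at 361 ± 18.0 CPM in MI_ART, 429 ± 83.1 CPM in MI and 457 ± 4.39 CPM in Sham. Pgk1, phosphoglycerate kinase, had 429, 414 and 425 CPM in MI_ART, 497, 521 and 508 CPM in MI and 456, 408 and 475 CPM in Sham. Neither was called against Sham (edgeR adjusted p = 0.204 for Tpi1 and 0.751 for Pgk1 in MI_ART, and 0.719 for Tpi1 and 0.330 for Pgk1 in MI), whereas with total counts Pgk1 was called higher in both infarcted groups and Tpi1 in MI. Pgk1 was higher in all 3 MI libraries than in any MI_ART or Sham library.

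Gapdh, the glyceraldehyde 3-phosphate dehydrogenase gene often used as a reference transcript, cannot be read from this table with confidence. Its row held 3946, 2588 and 6471 reads in MI_ART, 6605, 4010 and 3422 reads in MI and 1789, 3449 and 1346 reads in Sham. The row of its processed copy Gapdh-ps15 held 7481, 7776 and 8254 reads in MI_ART, 8977, 8695 and 13889 reads in MI and 6880, 5630 and 6987 reads in Sham, more than Gapdh itself in every library. Together with 1 further named copy these rows amounted to 128 to 519% of the Gapdh count. In the Gapdh row the groups overlapped in all comparisons (edgeR adjusted p = 0.981 for MI_ART against MI and 0.649 for MI against Sham). Named copies of the other genes were smaller: 4.85 to 5.88% of the reads of Eno1, 3.99 to 5.68% of Pgam1, 1.61 to 2.30% of Pgk1 and under 0.5% of Ldha, Tpi1 and Aldoa.

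For phosphoglycerate mutase and enolase, the next enzymes on the way to pyruvate, the general gene rose and the muscle gene fell in MI, Pgam2 with a change of sign under total counts. Pgam1 (chr19:41911871-41918665), the mutase of most tissues, had 145, 105 and 118 CPM in MI_ART, 150.3, 144 and 176 CPM in MI and 60.1, 45.2 and 49.6 CPM in Sham. All infarcted libraries were above all Sham libraries, by 2.37-fold in MI_ART (log2 fold change 1.25, SE 0.19, edgeR adjusted p = 0.00151) and by 3.04-fold in MI (log2 fold change 1.60, SE 0.19, edgeR adjusted p = 0.000264). Pgam2, the muscle mutase, had 162, 252 and 186 CPM in MI_ART, 191, 137 and 229 CPM in MI and 349, 315 and 245 CPM in Sham. It fell in MI at the edge of the threshold (log2 fold change -0.71, SE 0.24, edgeR adjusted p = 0.0499), passed on dropping MI 4 but not on dropping any other single library (edgeR adjusted p 0.0223 to 0.156), and was 0.13 higher than Sham on the log2 scale, not called, with total counts. Eno1 (chr4:150236708-150248879), the general enolase, had 360.1, 259 and 274 CPM in MI_ART, 408, 377 and 760.3 CPM in MI and 167, 161 and 139.9 CPM in Sham. MI 4 was the highest of all, and the 3 groups did not overlap, with MI highest and Sham lowest. Eno1 rose by 0.93 ± 0.27 in MI_ART and 1.72 ± 0.28 in MI (log2 ± SE; edgeR adjusted p = 0.0377 in MI_ART and 0.00133 in MI), and the MI_ART call was lost without any one of the 6 Sham and MI_ART libraries (edgeR adjusted p 0.00188 to 0.143 over all 9). Eno3 (chr11:70653125-70662513), the muscle enolase, had 434, 498 and 719 CPM in MI_ART, 520.4, 405 and 537 CPM in MI and 1075, 1169.7 and 1138 CPM in Sham. It fell in both groups, to 0.488 times Sham in MI_ART (log2 fold change -1.04, SE 0.21, edgeR adjusted p = 0.00824) and to 0.432 times Sham in MI (log2 fold change -1.21, SE 0.21, edgeR adjusted p = 0.00219).

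Pyruvate kinase and lactate dehydrogenase A, the last steps to pyruvate and lactate, were not called. Pkm was at 949 ± 54.5 CPM in MI_ART, 1174 ± 361 CPM in MI and 1026 ± 45.7 CPM in Sham (SD, n = 3 each; edgeR adjusted p = 0.516 for MI against Sham). Ldha, the lactate dehydrogenase subunit of glycolytic tissue, had 673, 595 and 692 CPM in MI_ART, 711, 695 and 854 CPM in MI and 632, 579.7 and 608 CPM in Sham. The 3 MI libraries lay above both other groups, by a margin that did not pass (log2 fold change 0.31, 95% interval -0.03 to 0.66, edgeR adjusted p = 0.146). Ldhb (chr6:142490249-142507957), the subunit typical of heart, where lactate is taken up and burnt, had 608, 647 and 763 CPM in MI_ART, 603, 355 and 296 CPM in MI and 1351, 1749 and 1813 CPM in Sham. Sham was highest, MI_ART lay between and MI was lowest, with no overlap. Ldhb fell to 0.411 times Sham in MI_ART (log2 fold change -1.28, SE 0.27, edgeR adjusted p = 0.00858) and to 0.255 times Sham in MI (log2 fold change -1.97, SE 0.27, edgeR adjusted p = 0.000602).

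The 2 lactate carriers moved in opposite directions in MI. Slc16a3 (chr11:120948484-120959000), which encodes MCT4, the carrier of cells that export lactate, had 27.0, 12.1 and 21.2 CPM in MI_ART, 34.0, 25.2 and 76.4 CPM in MI and 1.79, 1.56 and 0.919 CPM in Sham. Every infarcted library was above every Sham library, MI 4 was the highest, and MI_ART 1 lay within the range of MI. The gene was 14.1-fold higher in MI_ART (log2 fold change 3.82, SE 0.50, edgeR adjusted p = 0.000746) and 31.7-fold higher in MI (log2 fold change 4.99, SE 0.52, edgeR adjusted p = 0.000156), the widest change of the members in MI, and without MI 4 the log2 fold change in MI was 4.38. Slc16a1 (MCT1), the carrier through which heart muscle takes lactate up, had 132, 165 and 171 CPM in MI_ART, 175, 146 and 69.1 CPM in MI and 307, 261 and 272 CPM in Sham. In MI_ART its libraries were all below Sham but did not pass (log2 fold change -0.84, edgeR adjusted p = 0.0735). It fell in MI (log2 fold change -1.11, SE 0.30, edgeR adjusted p = 0.0173), a call lost without Sham 1 (edgeR adjusted p 0.0572).

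At the entry of pyruvate into the mitochondrion, the catalytic subunit, its phosphatase and 3 of 4 kinases fell in MI, and 1 kinase rose. Pdha1 (chrX:160122219-160138430), the catalytic subunit that the kinases phosphorylate, had 781, 919 and 889.9 CPM in MI_ART, 898, 723 and 298 CPM in MI and 1789.5, 1913 and 2142 CPM in Sham. All infarcted libraries lay below Sham and MI 4 was the lowest. It fell to 0.443 times Sham in MI_ART (log2 fold change -1.17, SE 0.33, edgeR adjusted p = 0.0332) and to 0.328 times Sham in MI (log2 fold change -1.61, SE 0.34, edgeR adjusted p = 0.00522), and the MI_ART call was lost without any one of the 6 Sham and MI_ART libraries (edgeR adjusted p 0.000456 to 0.121 over all 9). Pdp1, the phosphatase that reactivates the complex, had 33.1, 41.8 and 34.2 CPM in MI_ART, 33.4, 31.1 and 13.2 CPM in MI and 60.0, 54.0 and 70.1 CPM in Sham. It did not pass in MI_ART (edgeR adjusted p = 0.113) and fell in MI (log2 fold change -1.24, SE 0.31, edgeR adjusted p = 0.0120), although the libraries did not overlap Sham in either group.

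Of the kinases, Pdk4 (chr6:5483351-5496278), induced by fatty acids and fasting in the heart, had 469, 518 and 492 CPM in MI_ART, 372, 266 and 59.5 CPM in MI and 966, 937 and 1036 CPM in Sham. MI 4 was far below the other MI libraries, and the 3 groups did not overlap. In MI_ART its log2 fold change against Sham was -0.99 and did not pass (edgeR adjusted p = 0.190), whereas without MI 4 in the common fit it did (edgeR adjusted p 0.00110). Pdk4 fell in MI (log2 fold change -2.08, SE 0.50, edgeR adjusted p = 0.0108), with a log2 fold change of -1.62 without MI 4. Pdk2 (chr11:95026258-95041371), the widely expressed kinase, had 131, 144 and 132 CPM in MI_ART, 113, 57.8 and 89.2 CPM in MI and 278, 347 and 186 CPM in Sham. It fell to 0.502 times Sham in MI_ART (edgeR adjusted p = 0.0316) and to 0.320 times Sham in MI (log2 fold change -1.64, SE 0.28, edgeR adjusted p = 0.00190), the MI_ART call being lost without any one of Sham 1, Sham 2 and the 3 MI_ART libraries (edgeR adjusted p 0.0216 to 0.118 over all 9). Pdk1, a kinase known as a target of the hypoxia-inducible factor, had 111, 113 and 107 CPM in MI_ART, 118, 95.5 and 47.2 CPM in MI and 176, 209 and 203 CPM in Sham. It did not pass in MI_ART (edgeR adjusted p = 0.0657) and fell in MI (log2 fold change -1.17, SE 0.28, edgeR adjusted p = 0.0107). Pdk3 (chrX:93764616-93832150) was the kinase that rose, with 11.7, 11.6 and 11.8 CPM in MI_ART, 14.0, 16.2 and 17.6 CPM in MI and 5.81, 4.21 and 6.34 CPM in Sham. Its 3 groups were separate, MI highest and Sham lowest, with 2.15-fold more in MI_ART (log2 fold change 1.10, SE 0.20, edgeR adjusted p = 0.00428) and 2.92-fold more in MI (log2 fold change 1.55, SE 0.20, edgeR adjusted p = 0.000449).

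**Figure D2:**
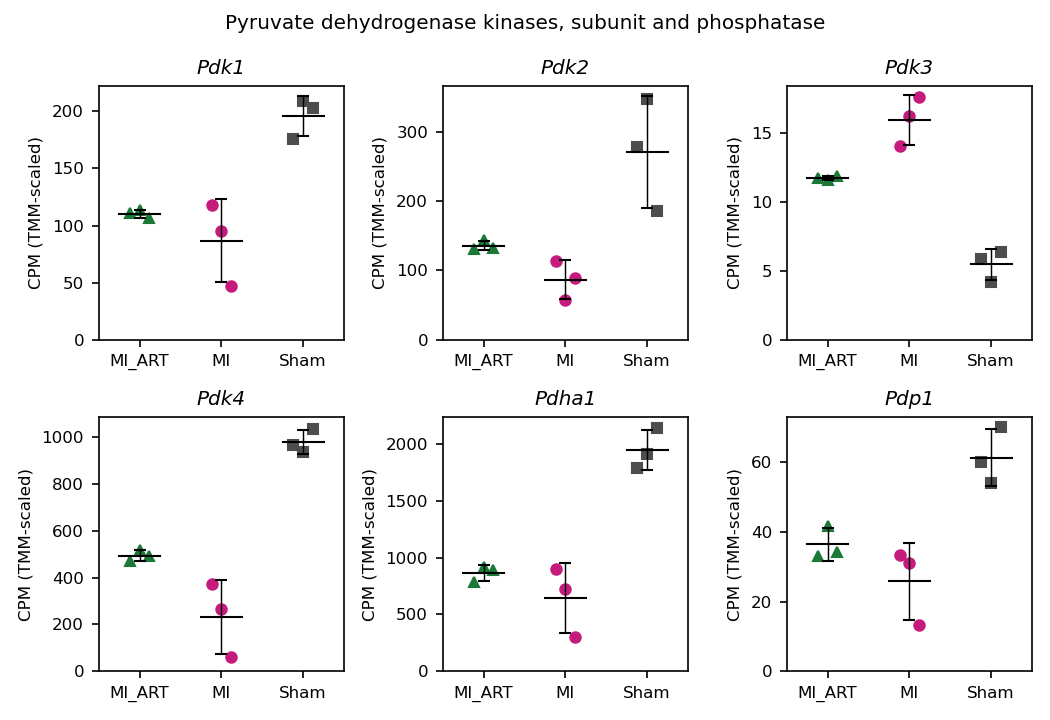
CPM (TMM-scaled, linear axis from 0) of the 4 pyruvate dehydrogenase kinases, the subunit Pdha1 and the phosphatase Pdp1 in MI_ART (left), MI and Sham (right); points are libraries, the long bar is the mean of 3 and the whisker its SD. Pdk3 is highest in MI and the other 5 are highest in Sham; the low MI point for Pdk4, Pdha1, Pdk1 and Pdp1 is MI 4.

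Glycogen, the stored form of glucose, has 2 phosphorylases among the members, of which the muscle form fell and the liver form rose in MI. Pygm (chr19:6384408-6398464), the muscle phosphorylase, had 434, 497 and 508 CPM in MI_ART, 386, 255 and 230.4 CPM in MI and 904, 1051 and 783 CPM in Sham. The 3 groups were separate, with MI lowest. Pygm fell to 0.525 times Sham in MI_ART (log2 fold change -0.93, SE 0.22, edgeR adjusted p = 0.0156) and to 0.318 times Sham in MI (log2 fold change -1.65, SE 0.22, edgeR adjusted p = 0.000544), the MI_ART call being lost without Sham 2, MI_ART 1 or MI_ART 2 (edgeR adjusted p 0.00489 to 0.0752 over the 9 libraries left out). Pygl, the liver phosphorylase, also found in white blood cells, had 25.0, 15.4 and 25.6 CPM in MI_ART, 33.6, 22.3 and 21.0 CPM in MI and 13.0, 15.3 and 8.56 CPM in Sham. It did not pass in MI_ART (edgeR adjusted p = 0.0705). It was higher in MI (log2 fold change 1.06, SE 0.29, edgeR adjusted p = 0.0197), a call lost without Sham 1, Sham 3 or MI 2 (edgeR adjusted p 0.0156 to 0.0729 over all 9). Gys1, the muscle glycogen synthase, overlapped between all groups, with 44.2, 72.1 and 40.4 CPM in MI_ART, 42.9, 45.9 and 61.1 CPM in MI and 58.5, 62.8 and 43.3 CPM in Sham.

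Ratios of 2 family members within a library need no scaling between libraries. A ratio of raw reads is not corrected for transcript length, so its size is not compared between pairs, only its change between groups. In 18 such pairs, with 0.5 added to each count, 14 ratios were higher in all 6 infarcted libraries than in all Sham libraries. MI_ART and MI taken singly against Sham also gave 14 separate ratios each. The pairs were chosen with earlier results of these data known, and most set a gene that rose over one that fell, so their separation restates those changes and no test of it is given. Several pairs share a gene, so they are not independent of each other. The ratio Slc2a1 over Slc2a4 was 0.158, 0.106 and 0.114 in MI_ART, 0.173, 0.247 and 0.384 in MI and 0.0268, 0.0380 and 0.0247 in Sham. That is 4.24-fold higher in MI_ART and 8.67-fold higher in MI than in Sham, as ratios of geometric means. Ldha over Ldhb was 1.11, 0.919 and 0.908 in MI_ART, 1.18, 1.96 and 2.88 in MI and 0.467, 0.332 and 0.335 in Sham, which is 2.61-fold higher in MI_ART and 5.04-fold higher in MI. Ldha alone had not passed the test, and Ldhb had fallen.

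For the lower glycolytic enzymes, Pgam1 over Pgam2 was 0.898, 0.417 and 0.632 in MI_ART, 0.786, 1.05 and 0.771 in MI and 0.172, 0.143 and 0.202 in Sham. Eno1 over Eno3 was 0.831, 0.520 and 0.380 in MI_ART, 0.784, 0.933 and 1.42 in MI and 0.155, 0.138 and 0.123 in Sham. In both families every infarcted library exceeded every Sham library. Against Sham the mutase ratio was 4.26-fold and the enolase ratio 5.39-fold higher over the 6 infarcted libraries. Over the same libraries the phosphofructokinase ratios were higher by 4.17-fold for Pfkp over Pfkm and 3.11-fold for Pfkl over Pfkm. Hk3 over Hk2 was 32.2-fold and Hk1 over Hk2 1.97-fold higher, and Pfkfb4 over Pfkfb2 4.34-fold. In each of these pairs the gene less tied to striated muscle is the numerator. The carrier ratio Slc16a3 over Slc16a1 was 0.204, 0.0734 and 0.124 in MI_ART, 0.195, 0.172 and 1.11 in MI and 0.00585, 0.00602 and 0.00342 in Sham, with MI 4 apart from the other infarcted libraries. Pdk3 over Pdk2 was 0.0894, 0.0805 and 0.0895 in MI_ART, 0.124, 0.280 and 0.197 in MI and 0.0209, 0.0121 and 0.0341 in Sham, and Pdk3 over Pdk4 was 8.31-fold higher than in Sham over the 6 infarcted libraries. Pygl over Pygm was 0.0576, 0.0310 and 0.0505 in MI_ART, 0.0872, 0.0872 and 0.0912 in MI and 0.0144, 0.0146 and 0.0109 in Sham. Its MI_ART libraries lay between MI and Sham. Aldoc over Aldoa was separate as well but rests on 0 to 32 Aldoc reads in Sham. The ratios Slc2a3 over Slc2a1, Pfkfb3 over Pfkfb2, Pdk1 over Pdk2 and Pdk4 over Pdk2 overlapped between infarcted and Sham libraries. Within the kinase family, the ratios that separated the groups were therefore those with Pdk3.

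**Figure D3:**
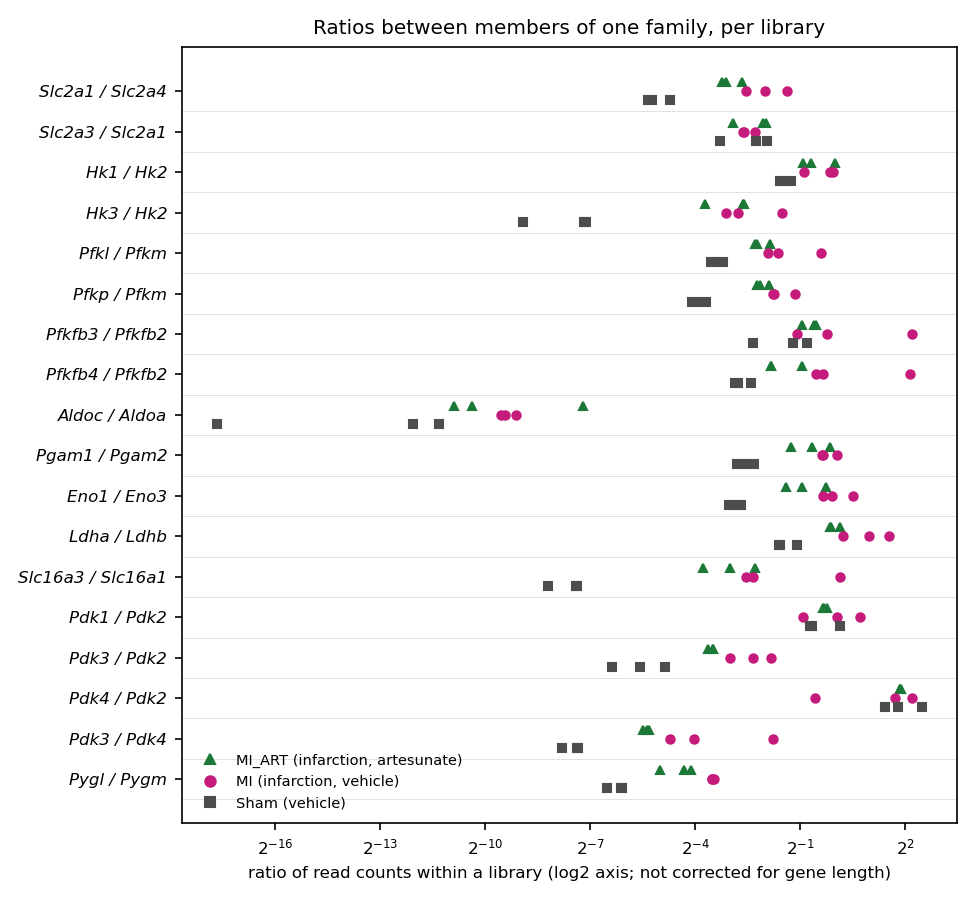
Ratio of the read counts of 2 genes of a family within each library (log2 axis, 0.5 added to each count, not corrected for gene length), for 18 pairs; triangles are MI_ART, circles MI and squares Sham. In 14 pairs all 6 infarcted libraries lie to the right of the 3 Sham libraries, and in 7 pairs the MI_ART triangles lie to the left of all MI circles.

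Artesunate after infarction was compared with vehicle after infarction, a comparison that shares the MI libraries with MI against Sham. No member passed the adjustment, and the values of the 9 genes with an unadjusted p under 0.05 are descriptions of these libraries. Higher in MI_ART than in MI were Pygm (log2 fold change 0.72, 95% interval 0.23 to 1.21, unadjusted p = 0.00818, edgeR adjusted p = 0.672), Pfkm (0.56, 0.14 to 0.98), Slc2a4 (0.56, 0.10 to 1.03), Pfkfb2 (1.24, 0.22 to 2.26), Ldhb (0.68, 0.10 to 1.27) and Pdk2 (0.65, 0.03 to 1.27). In all 6 the 3 MI_ART libraries lay above the 3 MI libraries. Lower in MI_ART were Eno1 (-0.79, -1.40 to -0.19), Slc16a3 (-1.17, -2.15 to -0.19) and Pdk3 (-0.44, -0.88 to -0.01), and the libraries of Slc16a3 overlapped. Their edgeR adjusted p over all tested genes were 0.672 to 0.716. Pdk4 had a log2 fold change of 1.09 (95% interval -0.01 to 2.18, unadjusted p = 0.0511) with no overlap.

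MI 4 decided part of these values. Its level lay below the mean of MI 2 and MI 3 by more than 1 on the log2 scale for 6 genes, Pdk4 (-2.39), Pfkfb2 (-2.03), Pdha1 (-1.43), Pdp1 (-1.26), Slc16a1 (-1.20) and Pdk1 (-1.16), and above it by more than 1 for Slc16a3 (1.37) and Pfkl (1.02). Without MI 4 the log2 fold changes of MI_ART over MI were 0.58 for Pygm, 0.45 for Pfkm, 0.46 for Slc2a4, 0.81 for Pfkfb2, 0.49 for Ldhb, 0.67 for Pdk2, -0.40 for Eno1, -0.56 for Slc16a3 and -0.37 for Pdk3. Each kept its sign, and that of Slc16a3 moved most. Without MI 4 and MI_ART 3 together, 4 members had an unadjusted p under 0.05, against 5.21% of all tested genes, and none was called. The atrial marker sums, which do not overlap between MI_ART and MI, moved with this comparison, and their part in it was not tested. The ventricular sums of MI_ART and MI overlapped, but all 7 ventricular markers had a positive log2 fold change in MI_ART over MI. Their median was 0.56, with 2 at an unadjusted edgeR p under 0.05 and 0 called. The part of ventricular muscle in this comparison was not tested either.

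**Figure D4:**
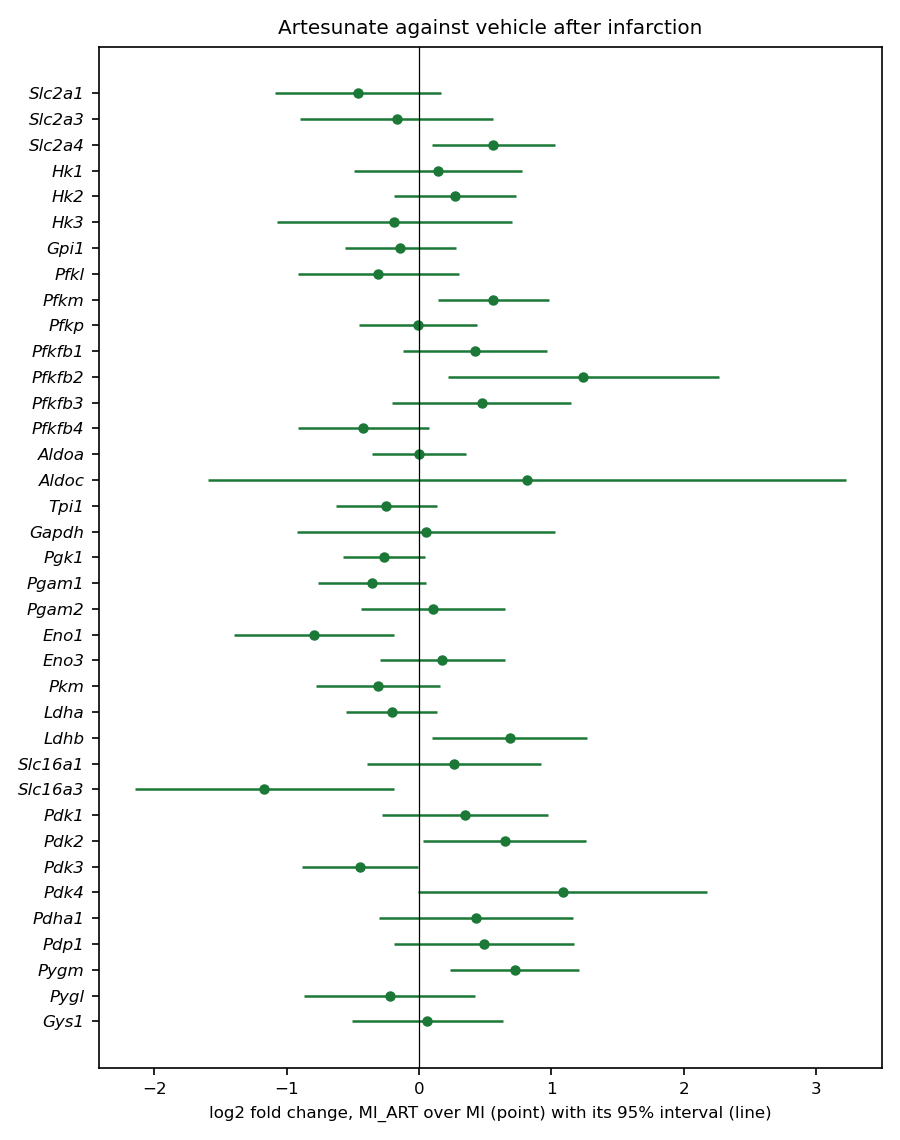
Log2 fold change of MI_ART over MI for each gene (point) with its 95% interval (line), from the edgeR fit over all 9 libraries; 0 means equal levels (the minor Aldoa row is left out). The intervals of 6 genes lie above 0 and those of 3 below it, none of which passed the adjustment over 19326 genes.

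The pairs, chosen with earlier results known, share genes with each other and with the differences listed above, so no test of their separation is given here either. Within a library, 7 of the 18 ratios were lower in all MI_ART libraries than in all MI libraries and none was higher without overlap. They were Slc2a1 over Slc2a4 (0.489 times MI), Pfkp over Pfkm (0.687), Pfkfb4 over Pfkfb2 (0.258), Ldha over Ldhb (0.518), Pdk3 over Pdk2 (0.455), Pdk3 over Pdk4 (0.271) and Pygl over Pygm (0.506). In each MI_ART library all 7 were above every Sham library. Part of the falls came from MI 4. Pfkfb4 over Pfkfb2 was 0.689, 0.783 and 4.41 in MI, against 0.282, 0.280 and 0.518 in MI_ART. Pdk3 over Pdk4 was 0.0377, 0.0610 and 0.295 in MI, against 0.0249, 0.0224 and 0.0240 in MI_ART.

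The rest of glucose metabolism was described by 11 lists with 129 genes. They were tested under TMM scaling alone, and their counts stand beside 12.9% higher and 7.41% lower of all tested genes in MI_ART and 18.8% higher and 14.3% lower in MI, both against Sham. Of the other genes of pyruvate uptake and the dehydrogenase complex, 7 of 8 were called lower in MI_ART and 7 of 8 in MI, with a median log2 fold change of -1.09 in MI_ART and -1.47 in MI. Pdhb, the other subunit of the E1 enzyme, was at 455 ± 58.5 CPM in MI_ART, 369.9 ± 118 CPM in MI and 1068 ± 131 CPM in Sham (edgeR adjusted p = 0.00142 in MI). Mpc2, a subunit of the carrier that brings pyruvate into mitochondria, was at 136 ± 18.3 CPM in MI_ART, 117 ± 27.6 CPM in MI and 310.1 ± 12.8 CPM in Sham (edgeR adjusted p = 0.000627 in MI), and Pdp2, the second phosphatase, at 15.1 ± 1.15 CPM in MI_ART, 8.66 ± 1.96 CPM in MI and 32.1 ± 4.10 CPM in Sham (edgeR adjusted p = 0.000186 in MI). Of 10 genes of the shuttles that pass glycolytic electrons to mitochondria, 6 were called lower in MI_ART and 9 in MI, with medians of -0.90 in MI_ART and -1.25 in MI. Slc25a11, the oxoglutarate carrier, was at 284 ± 38.6 CPM in MI_ART, 234 ± 42.3 CPM in MI and 567 ± 15.9 CPM in Sham (edgeR adjusted p = 0.000662 in MI).

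In 8 genes of the pentose phosphate pathway, which branches off after hexokinase, there were 3 calls higher in MI_ART, and 5 higher with 1 lower in MI, with medians of 0.56 in MI_ART and 0.81 in MI. G6pdx, the entry enzyme that makes NADPH, was at 34.9 ± 4.71 CPM in MI_ART, 38.9 ± 7.47 CPM in MI and 12.1 ± 2.69 CPM in Sham (edgeR adjusted p = 0.00139 in MI_ART and 0.000501 in MI), and Pgd, the next dehydrogenase, at 83.7 ± 13.5 CPM in MI_ART, 101 ± 31.9 CPM in MI and 31.4 ± 4.12 CPM in Sham (edgeR adjusted p = 0.00304 in MI_ART and 0.000704 in MI). The hexosamine pathway, which feeds protein glycosylation, had 2 calls higher among 8 genes in MI_ART, and 3 higher with 1 lower in MI. Gfpt2, one of its first-step enzymes, was at 23.2 ± 3.54 CPM in MI_ART, 27.5 ± 4.02 CPM in MI and 11.4 ± 1.28 CPM in Sham (edgeR adjusted p = 0.00455 in MI_ART and 0.000841 in MI). Further glucose and hexose transporters, 10 in number, gave 3 calls higher with 1 lower in MI_ART, and 4 higher with 2 lower in MI. Slc2a6, a transporter of macrophages and other leukocytes, was at 4.84 ± 3.19 CPM in MI_ART, 7.70 ± 2.66 CPM in MI and 0.209 ± 0.0758 CPM in Sham, and Slc2a12, a transporter of heart and muscle, at 4.08 ± 0.159 CPM in MI_ART, 2.19 ± 1.28 CPM in MI and 10.8 ± 1.31 CPM in Sham (edgeR adjusted p = 0.000213 and 0.00318 in MI).

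Glycogen genes other than the members, 20 in number, gave 1 higher and 5 lower calls in MI_ART and 2 higher and 11 lower in MI. Phkg1, the catalytic subunit of muscle phosphorylase kinase, was at 11.8 ± 7.76 CPM in MI_ART, 6.64 ± 1.62 CPM in MI and 40.0 ± 9.18 CPM in Sham and Pgm1, phosphoglucomutase, at 186 ± 15.8 CPM in MI_ART, 162 ± 25.3 CPM in MI and 324 ± 12.8 CPM in Sham (edgeR adjusted p = 0.00153 and 0.00139 in MI). Of 10 tested glycolytic isozymes that are no members, 1 was higher and 3 lower in MI_ART, and 3 were higher and 6 lower in MI. Galm, which interconverts the anomers of glucose and of galactose, was at 18.7 ± 2.53 CPM in MI_ART, 15.0 ± 3.38 CPM in MI and 33.6 ± 4.74 CPM in Sham, and Khk, the fructokinase, at 8.78 ± 0.451 CPM in MI_ART, 6.87 ± 0.970 CPM in MI and 11.4 ± 0.565 CPM in Sham (edgeR adjusted p = 0.00235 and 0.0105 in MI). Gluconeogenic and pyruvate-diverting enzymes, 10 tested, gave 1 call higher and 4 lower in MI_ART, and 2 higher with 5 lower in MI. Gpt2, a transaminase that exchanges pyruvate and alanine, was at 20.0 ± 2.62 CPM in MI_ART, 12.2 ± 3.86 CPM in MI and 45.2 ± 6.08 CPM in Sham, and Me2, a malic enzyme that makes pyruvate in mitochondria, at 18.5 ± 3.05 CPM in MI_ART, 25.0 ± 1.59 CPM in MI and 9.51 ± 0.936 CPM in Sham (edgeR adjusted p = 0.000492 and 0.000411 in MI).

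A list of 5 lactate carrier and lactate oxidation genes gave 1 call higher and 1 lower in each comparison with Sham. The higher one was Emb, an accessory protein of lactate carriers, at 24.9 ± 7.91 CPM in MI_ART, 28.9 ± 2.33 CPM in MI and 5.88 ± 1.09 CPM in Sham (edgeR adjusted p = 0.000550 in MI_ART and 0.000213 in MI). The 14 insulin signalling genes gave no call in MI_ART, where the median log2 fold change was -0.39, and 1 higher and 7 lower calls in MI, where it was -0.67. Tbc1d4, the Akt substrate that holds GLUT4 inside the cell until insulin acts, was at 80.7 ± 11.7 CPM in MI_ART, 51.8 ± 20.5 CPM in MI and 132 ± 7.06 CPM in Sham (edgeR adjusted p = 0.0977 in MI_ART and 0.00476 in MI). The 23 regulators of glycolytic genes gave 2 calls in each direction in MI_ART, and 2 higher with 8 lower in MI. Myc, a transcription factor that activates glycolytic genes in growing cells, was at 6.97 ± 1.29 CPM in MI_ART, 9.74 ± 2.34 CPM in MI and 2.66 ± 1.10 CPM in Sham, Epas1, the hypoxia-inducible factor 2 alpha gene, at 142 ± 11.2 CPM in MI_ART, 105 ± 17.3 CPM in MI and 249 ± 26.3 CPM in Sham and Egln1, the oxygen sensor that marks these factors for destruction, at 167 ± 5.73 CPM in MI_ART, 106 ± 29.7 CPM in MI and 333 ± 41.6 CPM in Sham (edgeR adjusted p = 0.00277, 0.000654 and 0.000476 in MI). Hif1a had a log2 fold change of 0.72 in MI and did not pass (edgeR adjusted p = 0.0567). In MI_ART against MI, no gene of the 11 lists was called.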

How the data were processed

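The authors deposited a raw count for each Ensembl gene and library, without normalization. Per the submitters' processing notes, the build was GRCm38 and the tools were HISAT, DESeq 1.8.3 and featureCounts 1.5.0-p3. How strand and multiply mapped reads were handled is not given in the sources used here. Per the labels' protocols, libraries were made with a SMARTer mRNA kit. The 9 per-sample files equal the series table at a tolerance of 0. Groups follow the sample labels, and no source says that each came from its own animal. The p-values therefore measure only how far these samples spread, which may be technical. The labels also call the animals rats in one place and name RNeasy as well as TRIzol for extraction.

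Counts were fitted in R 4.3.3 with edgeR 4.0.16 (filterByExpr, TMM, quasi-likelihood F test, all 9 libraries, 1 mean per group), with Benjamini-Hochberg adjustment over 19326 genes and calls at 0.05. The common dispersion was 0.150. CPM divides by the TMM-scaled library size, on which 3 counts equal 0.0322 to 0.0592 CPM, for counting error only. The fit was tested on simulated data. The exact permutation tests planned for the ratios are not given, since the pairs were chosen with earlier results known. Coordinates are those of RefSeq for GRCm38.p6, matched by symbol for all 37 genes. Named are all members, and of each list up to 3 genes called in MI against Sham with the smallest p, with Hif1a added after its values were seen and 1 gene that the rule names not reported here. Members, lists and pairs were chosen with earlier results of these data known. Alternatives were RLE and upper-quartile factors, total counts, DESeq2 1.42.0, other filters, 2-group fits, a replicate block, leaving out each library and leaving out MI 4 with MI_ART 3. Added after seeing the data were total counts without mitochondrially encoded genes and the sum of each gene with its named copies. Promoter and protein sequences were not used here.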

Additional observations from a re-analysis of the deposited data

How the results depend on the processing

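Scaling by total counts gave 17 higher and 1 lower calls in MI_ART against Sham, where TMM gave 9 and 8 and total counts called 41.6% of all genes higher and 0.642% lower, and 20 higher and 7 lower in MI against Sham, where TMM gave 10 and 15 and total counts called 49.3% of all genes higher and 3.33% lower. Total counts without mitochondrially encoded genes gave 13 higher and 4 lower in MI_ART (23.8% and 1.89% of all genes). In MI they gave 13 higher and 9 lower (30.5% and 7.01%). With total counts the sign turned for 9 members in MI_ART, Hk2 (0.15), Gpi1 (0.62), Pfkfb2 (0.55), Aldoa (0.28), Tpi1 (0.40), Pgk1 (0.67), Pgam2 (0.13), Pkm (0.62) and Gys1 (0.65), and for 4 in MI, Aldoa (0.39), Tpi1 (0.76), Pgam2 (0.13) and Gys1 (0.70) (log2, against Sham). The cause was not tested. Fitted on MI_ART and Sham alone, 14 member entries of the count table were lower, as were 13.9% of all genes. Leaving out 1 library at a time gave 4 to 10 higher and 4 to 14 lower calls in MI_ART against Sham. The shares of all genes were then 7.97 to 17.3% higher and 2.27 to 14.6% lower. Whether replicate numbers pair the libraries was not settled by their correlations. Deviations of same-numbered libraries of different groups correlated at 0.00107 to 0.192, and those of other libraries at -0.194 to 0.143. The 3 same-numbered pairs of MI_ART and Sham were at 0.0272, 0.00750 and 0.0920, and not every library correlated best with its own number. The fit with the replicate block called 15 lower in MI_ART against Sham, where its share of all genes called lower was 13.8%, against 7.41% without the block, and moved no other count of members called by more than 1.5 times. In MI_ART against MI no alternative called a member (adjusted p 0.180 to 1.0), and DESeq2 called 45 genes higher and 40 lower over the whole table, against 0 and 2. With 68046341 or more reads per library, 4 entries had fewer than 100 reads in every Sham library, Hk3 (24 to 71), Slc16a3 (48 to 97), Aldoc (0 to 32) and the minor Aldoa row (0 to 9).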
